A study of Mus musculus with 30 samples.

Results

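The 7 genes described here, Eef1a1, Eef1a2, Eef1b2, Eef1d, Eef1g, Eef2 and Eef2k, encode cytosolic translation elongation factors and the kinase of one of them. They were picked by symbol, and all 7 were among the 23993 genes of an FPKM table of FACS-sorted interneurons from mouse medial prefrontal cortex (mPFC). FPKM, fragments per kilobase of transcript scaled to the mapped fragments of the library, is a level per transcript length, so levels of different genes can be set side by side. The mice were C57BL/6 reporter animals, heterozygous for tdTomato switched on by Cre under Sst or Pvalb, and the label marks every cell in which Cre was ever active, whether or not it still makes the peptide or the calcium-binding protein. The age of the mice is given for the study as a whole and not by group. Nothing in the labels says whether a library was 1 animal or a pool, so the p-values below measure the spread between these samples, part of which may be technical.

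Values were at hand for 24 libraries. They came from Sst females without stress (7), Sst males without stress (7), Sst males after 14 days of chronic unpredictable stress (CUS) (3) and Pvalb males without stress (7). A further 6 labelled libraries (1 unstressed Pvalb female, 3 Sst females after CUS and 2 Pvalb females after CUS) are not analysed here. SST0-M with SST1-M, and PV0-M with PV2-M, were near-identical across genes and were averaged, which left 22 samples. Titles were of 2 kinds, numbered (SST3-M, PV4-M) and dated (SS04031R, SST040241L, SST04241LL and the 3 CUS libraries), and each of the main comparisons stayed within 1 kind. The kind of title is used only as it appears in the labels, which do not say what it stands for.

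Elongation adds amino acids to the growing chain. eEF1A, made from either Eef1a1 or Eef1a2, brings charged tRNA to the ribosome in its GTP-bound form, and the eEF1B complex of Eef1b2 and Eef1d (the nucleotide exchange subunits) and Eef1g (a structural subunit) reloads it with GTP. eEF2 moves the ribosome by 1 codon, and eEF2 kinase, activated by calcium and calmodulin, phosphorylates and inhibits it. Eef1a2 is the form of adult neurons and muscle, whereas most other cells rely on Eef1a1, and mRNAs of the core factors, like those of ribosomal proteins, carry the 5′ terminal oligopyrimidine (TOP) tract through which mTOR signalling controls their translation.

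The genes lie on 7 chromosomes in GRCm38.p6, the RefSeq release of the mm10 build. Eef1a1 is at chr9:78478453-78481724, Eef1a2 at chr2:181141758-181157015, Eef1b2 at chr1:63176831-63180486, Eef1d at chr15:75894796-75909784, Eef1g at chr19:8967041-8978180, Eef2 at chr10:81176631-81182509 and Eef2k at chr7:120842642-120907219. Eef1d has 19 annotated transcripts and Eef2k 9, against 1 for each of the other 5, and the table gives 1 value per gene. The windows from 50 bases before to 30 bases after the RefSeq start are shown for both eEF1A genes and for Eef2. Both eEF1A genes sat at opposite ends of the range of levels. Eef2 was the member called between the Sst and Pvalb samples, a call that several other fits below lost.
Eef1a1 (chr9:78481695-78481774, minus strand): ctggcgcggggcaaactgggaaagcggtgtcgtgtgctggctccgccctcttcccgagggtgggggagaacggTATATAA
Eef1a2 (chr2:181156986-181157065, minus strand): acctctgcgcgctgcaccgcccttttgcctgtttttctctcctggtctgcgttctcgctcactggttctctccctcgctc
Eef2 (chr10:81176581-81176660, plus strand): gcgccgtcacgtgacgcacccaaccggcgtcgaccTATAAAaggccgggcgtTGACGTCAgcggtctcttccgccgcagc
Capitals mark exact matches, on either strand, to 3 motifs chosen after these windows were read: TATATAA at the end of the first window, and TATAAA and then TGACGTCA in the last. Of 32851 RefSeq windows of 80 bases, 1.04% hold TATATAA, 4.37% TATAAA and 0.825% TGACGTCA. Eef1a1 has TATATAA, starting 24 bases after the annotated start, and Eef2 has both TATAAA and TGACGTCA, while the Eef1a2 window holds none of the 3. The windows found for Eef1b2 and Eef2k hold none of them either, and no window was at hand for Eef1d or Eef1g.

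All 7 genes were above 0 in every library, and Eef1a1 was the most abundant and Eef1a2 the least abundant of them in 22 of 22 samples. The 7 genes summed to 789.5 FPKM ± 160.7 (SD, n = 22), and Eef1a1 made up 61.4% ± 4.58 of that sum. Eef2 ranked second in 21 of 22 samples and Eef2k sixth in 20 of 22. The full order Eef1a1, Eef2, Eef1g, Eef1b2, Eef1d, Eef2k, Eef1a2 held in 12 of 22 samples, and the exceptions were swaps among Eef1g, Eef1b2, Eef1d and Eef2k, with Eef1b2 above Eef2 in 1 sample. Against the whole table, the mean of Eef1a1 exceeded that of 99.7% of genes and the mean of Eef1a2 that of 58.4%. Eef1a2 was above 0.4 FPKM, the level at which the study calls a gene expressed, in 20 of 24 libraries, and the other 6 genes in 24 of 24.

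**Figure D1:**
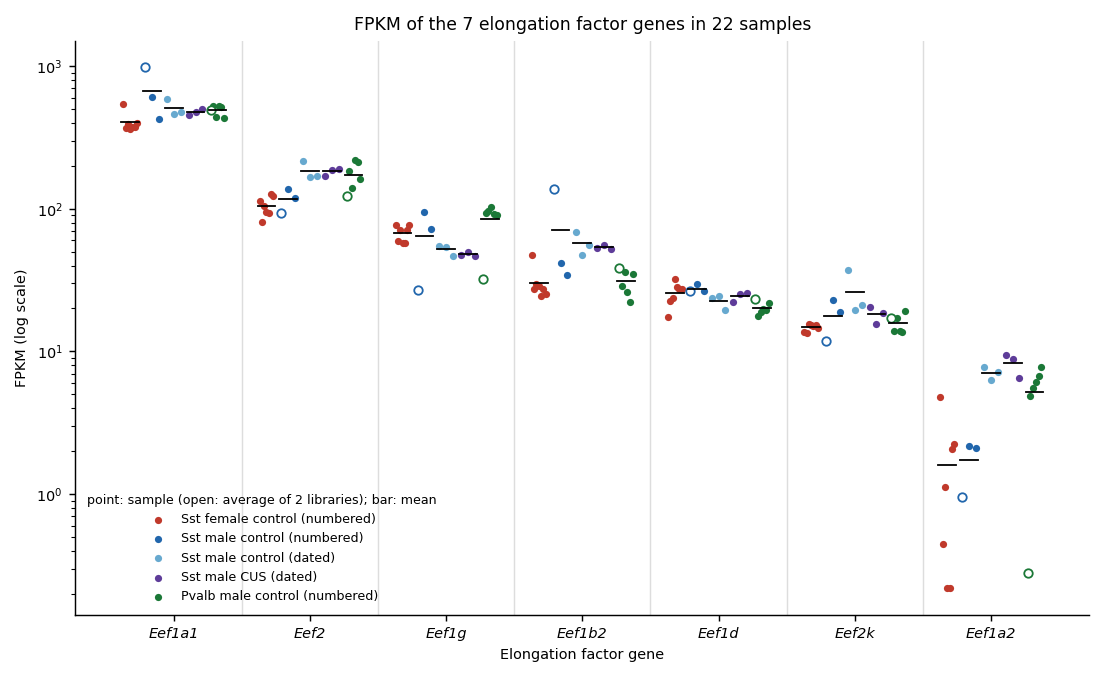
FPKM of each elongation factor gene (vertical axis, log scale) in the 22 samples, grouped by gene and coloured by group, with black bars at group means and open circles for the averaged pairs. Eef1a1 sits at the top and Eef1a2 at the bottom, Eef1a2 spreads from 0.218 to 9.40 FPKM, and the open circle of the Sst males stands at 989.2 FPKM for Eef1a1 and 137.5 for Eef1b2.

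The sorted fractions were not free of other cells, which bears on every level given here. The summed FPKM of 12 microglia markers ran from 3793 to 10680 over the samples, that of 8 neuron markers from 46.3 to 356.8, and that of 10 interneuron markers from 34.1 to 296.3. Sst itself was listed at 0 in the dated control SS04031R and was 12.3 to 30.5 FPKM in the Pvalb libraries, against 0.238 to 49.3 in the other Sst libraries. The 49.3 was SST-F, and the next highest Sst library, SST5-F, had 18.2. Among numbered samples the mean of Sst was lower in the Sst samples, 11.6 FPKM ± 14.6 (SD, n = 10), than in the Pvalb samples, 23.3 ± 7.45 (n = 6). Pvalb went with the label, at 0.402 ± 0.676 in the Sst and 2.64 ± 1.43 in the Pvalb samples. Xist, transcribed from the inactive X of females, was 300.2 to 333.1 FPKM in PV1-M, PV4-M and PV5-M, which are labelled male, and below 10 FPKM in the other Pvalb libraries. Small nucleolar RNAs took 53.7% to 75.9% of the summed FPKM in dated libraries and 1.87% to 8.29% in numbered ones. Read counts were not at hand, so depth is known only in relative terms (0.46 to 2.462, with SST2-F set to 1), and in these bulk samples fewer cells of a type and less RNA per cell cannot be told apart.

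Pvalb samples were compared with Sst samples first, 6 against 10, all with numbered titles and without stress, to see whether the subtypes differed in the elongation machinery. The Sst samples were 7 females and 3 males and the Pvalb samples were all labelled male, so subtype and sex cannot be told apart in this comparison. Eef2 was 1 of the 7 genes past the threshold, lower in the Sst samples, while Eef1a2 was lower and Eef1d higher without passing it. The limma test called 10.2% of 14483 genes in this comparison, so 1 of 7 members is close to the share among all genes. The median log2 fold change (Sst minus Pvalb, on log2(FPKM + 1), as are all below) was -0.089 for the 7 members and 0.013 for all genes.

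Eef2, the translocase, had 80.3, 108.6 and 137.4 FPKM as the lowest, median and highest of the 10 Sst samples. In the Pvalb samples it was 123.3 in the averaged PV0-M and PV2-M, 138.8 in PV3-M, 161.2 in PV6-M, 184.8 in PV1-M, 213.3 in PV5-M and 221.5 in PV4-M. The averaged pair alone fell within the Sst range, and the other 5 Pvalb samples lay above all 10 Sst samples. Means were 108.5 FPKM ± 18.0 (SD, n = 10) and 173.8 ± 39.7 (n = 6), a log2 fold change of -0.66 (SE 0.158, limma with Benjamini-Hochberg adjustment, adjusted p = 0.0152). The 3 Pvalb samples with high Xist had 184.8 to 221.5 FPKM and the other 3 had 123.3 to 161.2. Without those 3 the log2 fold change was -0.39 (limma adjusted p = 0.365). Without PV4-M alone it was -0.58 (limma adjusted p = 0.056) and without PV5-M alone -0.60 (limma adjusted p = 0.0547). Matched on labelled sex, with the 3 numbered Sst males against Pvalb, it was -0.56 (limma adjusted p = 0.327), and that smaller fit called 13 of 14253 genes. With the 7 Sst females against Pvalb it was -0.71 (limma adjusted p = 0.00517).

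Eef1a2, the neuronal form of eEF1A, split the numbered samples more widely than any other member. It was 0.218 FPKM in SST4-F, 0.22 in SST3-F, 0.445 in SST1-F, 1.11 in SST2-F, 2.08 in SST5-F, 2.24 in SST6-F and 4.83 in SST-F. In the numbered Sst males it was 0.946 in the averaged pair, 2.10 in SST4-M and 2.17 in SST3-M. In the Pvalb samples it was 0.279 in the averaged PV0-M and PV2-M and 4.84 to 7.82 in the other 5. SST-F came close to the lowest single Pvalb sample, and the Pvalb pair fell among the lowest Sst samples, so the groups overlapped through that pair.

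Over all of them the means were 1.64 FPKM ± 1.39 (n = 10) in Sst and 5.22 ± 2.63 (n = 6) in Pvalb samples, and the log2 fold change was -1.19 (SE 0.406, limma adjusted p = 0.0657). Without the averaged Pvalb pair it was -1.60 (limma adjusted p = 0.00294), without SST-F -1.34 (limma adjusted p = 0.0357), without the 3 Pvalb samples of high Xist -0.84 (limma adjusted p = 0.501), and with the numbered Sst males alone -1.001 (limma adjusted p = 0.427). The Eef1a1 to Eef1a2 ratio had a median of 83.5 in Pvalb and 352.2 in female Sst samples and ran from 48.2 to 1762 over all samples, most of which is the range of Eef1a2.

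The numbered samples with the most Eef1a2 also had the highest neuron marker sums. The 5 single Pvalb samples had neuron marker sums of 284.6 to 356.8 FPKM and excitatory marker sums (4 genes, Slc17a7 and Camk2a among them) of 462.1 to 524.8. SST-F, the numbered Sst sample with the most Eef1a2, had 280.6 and 233.6, whereas the other 9 numbered Sst samples had 82.2 to 196.2 and 42.8 to 132.9. Among those 9 the 2 levels did not keep the same order. The averaged SST0-M and SST1-M had the neuron sum of 196.2 with 0.946 FPKM of Eef1a2. The females other than SST-F had neuron sums of 82.2 to 93.4 with 0.218 to 2.24 FPKM. The Pvalb pair, with 0.279 FPKM of Eef1a2, had 49.4 and 23.2. Of the 8 neuron markers 2 were called lower in Sst and 0 higher, and of the 4 excitatory markers 2 and 0. Other cell types differed as well: 4 of 5 endothelial markers were called higher in Sst (median log2 fold change 2.59) and 0 lower, 2 of 12 microglia markers lower (median -0.70) and 0 higher, 1 of 6 oligodendrocyte markers lower and 1 of 6 astrocyte markers higher. The part of these other transcripts in the Eef1a2 and Eef2 differences was not tested. Unlike the numbered samples, the 6 dated samples had 6.26 to 9.40 FPKM of Eef1a2 beside neuron marker sums of 46.3 to 106.6.

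**Figure D2:**
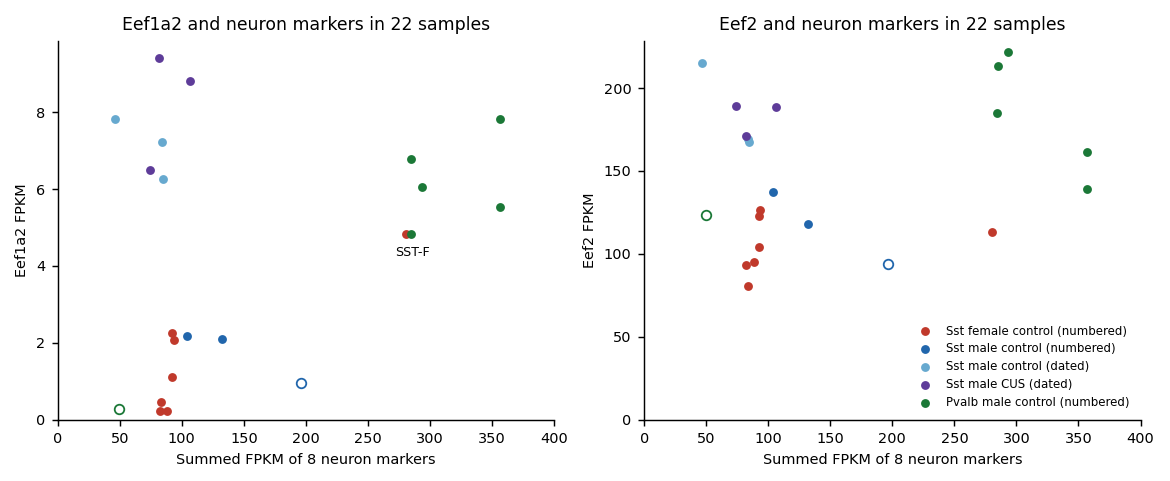
Eef1a2 (left) and Eef2 (right) in FPKM against the summed FPKM of 8 neuron markers, 1 point per sample, coloured by group, with open circles for the averaged pairs. Among numbered samples Eef1a2 of 4.83 FPKM or more occurs only at neuron sums of 280.6 and above, while the dated samples combine 6.26 to 9.40 FPKM with sums of 46.3 to 106.6.

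The eEF1B subunits did not share a direction between subtypes. Eef1d, an exchange subunit, was 17.5 to 32.2 FPKM in Sst and 17.8 to 23.1 in Pvalb samples, and SST-F at 17.5 was the lowest of all 16. Its means were 26.2 ± 4.09 (n = 10) and 20.1 ± 1.98 (n = 6), a log2 fold change of 0.35 (SE 0.13, limma adjusted p = 0.0881). Without SST-F it was 0.41 (limma adjusted p = 0.0286). Eef1g, the structural subunit, was 90.9 to 102.3 FPKM in the 5 single Pvalb samples, all above every Sst sample but SST3-M at 95.0, and 31.9 in the Pvalb pair. With the pair included the log2 fold change was -0.31 (SE 0.258, limma adjusted p = 0.466), and without both averaged pairs, a choice made after seeing the data, it was -0.43 (limma adjusted p = 0.0155). Eef1b2 (0.24, SE 0.29), Eef1a1 (-0.09, SE 0.199) and Eef2k (-0.02, SE 0.141) had limma adjusted p of 0.631, 0.809 and 0.933.

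**Figure D3:**
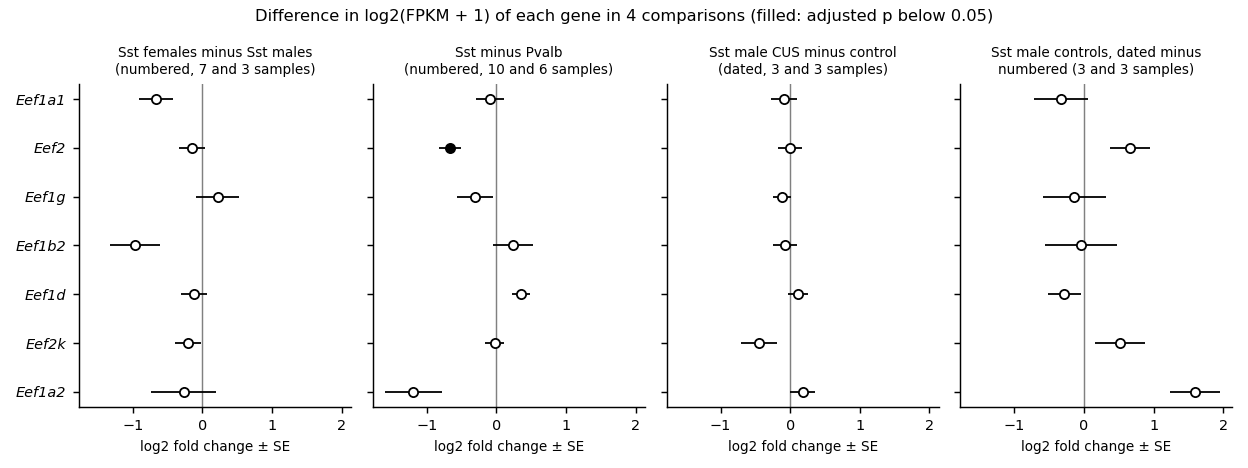
Log2 fold change on log2(FPKM + 1), with its standard error as a horizontal bar, for each of the 7 genes (rows) in each of the 4 comparisons (panels), with filled points where the limma adjusted p passed 0.05. The filled point is Eef2 in the Sst against Pvalb panel, at -0.66, and all points of the CUS panel lie between -0.45 and 0.18.

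Sex was compared in Sst mice, with 7 female and 3 male samples of numbered titles. Eef1a1 and Eef1b2 had lower means in females, at unadjusted p of 0.0191 and 0.0208, and the other 5 genes differed by less. No member was called by limma after adjustment, in a comparison where 3.41% of 14443 genes were. At an unadjusted limma p under 0.05 there were 2 of 7 members, beside 3515 of the 14443 genes. The median log2 fold change, female minus male, was -0.21 for the members and 0.05 for all genes.

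Eef1a1, the major eEF1A, was 363.1 to 399.7 FPKM in 6 of the 7 females and 544.1 in SST-F. In the males it was 423.6 in SST4-M, 605.8 in SST3-M and 989.2 in the averaged SST0-M and SST1-M. SST-F lay inside the male range and the other 6 females below it. Means were 402.9 ± 63.5 (n = 7) and 672.9 ± 288.7 (n = 3), a log2 fold change of -0.66 (SE 0.245, limma adjusted p = 0.131).

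Eef1b2, the other exchange subunit, had the same arrangement. It was 24.4 to 29.7 FPKM in 6 females and 47.7 in SST-F, and 34.4, 41.7 and 137.5 in the males. The averaged male pair was the highest of the 22 samples, and SST-F again lay inside the male range. That pair also had the highest astrocyte marker sum of the 22 samples (1803 FPKM), the highest mean log2(FPKM + 1) of ribosomal protein genes (7.38), and the highest oligodendrocyte (1422) and endothelial (175.6) marker sums of the numbered samples, whose part in its Eef1a1 and Eef1b2 levels was not tested. The log2 fold change was -0.97 (SE 0.362, limma adjusted p = 0.137). Without that pair it was -0.35 for Eef1b2 and -0.34 for Eef1a1 (limma adjusted p = 0.377 and 0.342), so both differences were smaller by more than 1.5 times without it. Leaving out SST4-M instead gave -0.95 for Eef1a1 (limma adjusted p = 0.0402) and -1.34 for Eef1b2 (limma adjusted p = 0.0537).

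The ribosomal protein genes, which share the TOP tract with these factors, had a median log2 fold change of -0.66 between the sexes over 83 genes tested, with 0 called higher and 3 lower. Of 14 other TOP mRNAs, 0 were called in either direction (7 at an unadjusted p under 0.05) and the median was -0.36. Among all genes, 3515 of 14443 were at an unadjusted limma p under 0.05 between the sexes. Of 12 microglia markers, 5 were called lower in females and 1 higher (11 at an unadjusted p under 0.05). The summed microglia level was 3951 to 7067 FPKM in females and 6325 to 10480 in males, and its part in the differences of Eef1a1 and Eef1b2 was not tested.

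The remaining members differed less between the sexes than their spread. Eef2k, the eEF2 kinase, was the most even gene in females, 13.5 to 15.6 FPKM over 7 samples, and was 11.7, 18.9 and 22.8 in the males (-0.21, SE 0.19, limma adjusted p = 0.504). Eef2 was 80.3 to 126.4 in females and 94.1 to 137.4 in males (-0.15, SE 0.19, limma adjusted p = 0.65). Eef1a2 (-0.27, SE 0.47), Eef1d (-0.12, SE 0.185) and Eef1g (0.22, SE 0.307) had limma adjusted p of 0.746, 0.703 and 0.679.

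CUS was compared in Sst males of dated titles, 3 samples against 3. No member passed the limma test and 0 of 7 had an unadjusted p under 0.05. Of 14186 genes, 0.00705% were called, that is 1 gene, and 956 had an unadjusted limma p under 0.05. The median log2 fold change, CUS minus control, was -0.07 for the members and 0.002 for all genes. No cell type marker was called, but 6 of 6 oligodendrocyte markers were higher after CUS (median 0.94, 5 at an unadjusted limma p under 0.05). So were 5 of 5 endothelial (median 1.60), 6 of 6 astrocyte (0.37) and 7 of 8 neuron markers (0.24). Of 11 microglia markers tested, 0 were higher (median -0.61). The part of these other transcripts in the member levels was not tested.

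Eef2k had the largest difference with all 6 samples. It was 15.6, 18.5 and 20.4 FPKM after CUS, and 19.5, 21.3 and 37.4 in the controls, where SS04031R gave the highest value of all 24 libraries. The ranges overlapped at 19.5 to 20.4. The log2 fold change was -0.45 (SE 0.254, limma adjusted p = 0.647). Without SS04031R it was -0.17 (limma adjusted p = 0.707), below the 0.25 of Eef1a2 (limma adjusted p = 0.689) in the same samples.

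Eef1a1 was 453.5, 474.8 and 496.8 FPKM after CUS and 460.5, 478.0 and 584.3 in controls (-0.09, SE 0.191, limma adjusted p = 0.875). Eef2 was 170.9, 188.3 and 189.1 after CUS and 167.7, 169.5 and 215.0 in controls (-0.002, SE 0.175). Eef1a2 was 6.51, 8.81 and 9.40 after CUS and 6.26, 7.22 and 7.81 in controls (0.18, SE 0.181, limma adjusted p = 0.726). All 3 genes overlapped between the groups, and the control SS04031R held the highest Eef1a1 and Eef2 of the 6. That library also had the lowest neuron marker sum (46.3 FPKM) and the highest microglia marker sum (10680) of the dated samples.

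The eEF1B subunits were as close. Eef1b2 was 53.7 FPKM ± 1.66 after CUS and 57.2 ± 10.6 in controls (n = 3 each), Eef1d 24.4 ± 2.0 and 22.5 ± 2.64, and Eef1g 48.0 ± 1.5 and 52.2 ± 4.46, with log2 fold changes of -0.07 (SE 0.168), 0.12 (SE 0.142) and -0.12 (SE 0.134). Ribosomal protein genes had a median of -0.03, with 0 of 83 called. Set against numbered male controls instead, the same CUS samples were 1.77 higher in Eef1a2 on the log2 scale (limma adjusted p = 0.016), a comparison in which stress and the kind of title cannot be told apart.

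The kind of title itself was therefore compared in unstressed Sst males, 3 dated against 3 numbered samples. Eef1a2, Eef2 and Eef1d did not overlap between the kinds. The share of all genes without overlap was not counted, so this is not read as particular to the members. None of the 7 members was called by limma after adjustment, beside 4.11% of 14230 genes. At an unadjusted limma p under 0.05 there was 1 member, beside 3354 of all genes. The median log2 fold change, dated minus numbered, was -0.045 for the members and -0.004 for all genes.

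Eef1a2 was 6.26, 7.22 and 7.81 FPKM in the dated and 0.946, 2.10 and 2.17 in the numbered males. Every dated sample was above every numbered one, by a log2 fold change of 1.59 (SE 0.361, limma adjusted p = 0.0547). Neuron marker sums went the other way, 46.3 to 84.6 FPKM in the dated and 104.2 to 196.2 in the numbered males, and Snap25, a synaptic vesicle fusion protein, was called lower in the dated ones (-2.17, limma adjusted p = 0.0105).

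Eef2 was 167.7, 169.5 and 215.0 FPKM in dated against 94.1, 118.1 and 137.4 in numbered males (0.66, SE 0.291, limma adjusted p = 0.221). Eef1d was lower in the dated samples, 19.5, 23.6 and 24.4 against 26.5, 26.6 and 29.5 (-0.29, SE 0.238, limma adjusted p = 0.496). Eef2k (0.51, SE 0.362), Eef1a1 (-0.33, SE 0.391), Eef1g (-0.14, SE 0.459) and Eef1b2 (-0.05, SE 0.518) overlapped, the last 3 with standard errors at or above the difference. Ribosomal protein genes had a median of -0.81, with 13 of 82 called lower and 2 higher.

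Ratios of members within a sample do not depend on a linear scaling of libraries, and the clearest was between subunits of eEF1B. Eef1g exceeded Eef1b2 in 14 of 16 numbered samples, by 1.61 to 4.17 times, and the exceptions were both averaged pairs, at 0.197 (SST0-M with SST1-M) and 0.832 (PV0-M with PV2-M). Eef1b2 exceeded Eef1g in 5 of 6 dated samples, the other being SST040241L with a ratio of 1.15. The median ratio was 2.38 in female Sst, 2.96 in Pvalb, 0.842 in dated control and 0.893 in CUS samples. In this ratio the Pvalb pair lay within the dated range and the Sst male pair below it.

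**Figure D4:**
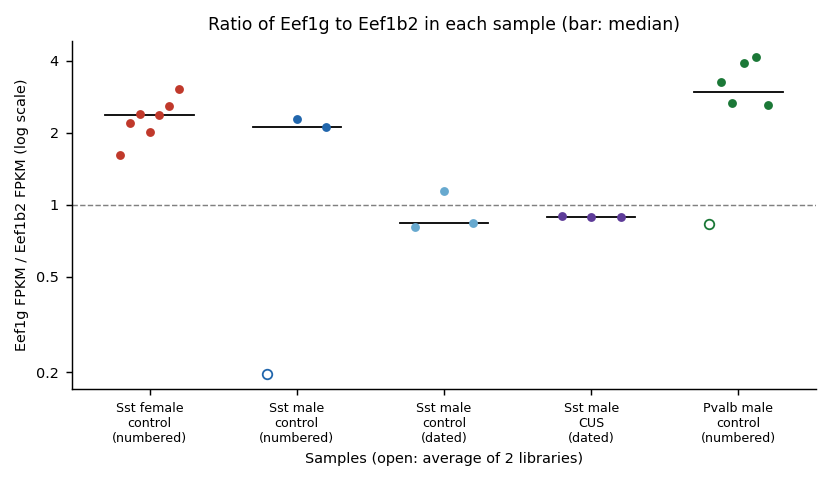
Ratio of Eef1g to Eef1b2 FPKM (vertical axis, log scale) in each of the 22 samples by group, with bars at medians, open circles for the averaged pairs and a dashed line at equal levels. The single numbered samples lie at 1.61 or above and the dated samples between 0.807 and 1.15.

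The Eef2 to Eef2k ratio was 7.12 ± 1.11 (SD) in female Sst samples (n = 7), 7.44 ± 1.5 in dated controls (n = 3), 10.2 ± 1.84 after CUS (n = 3) and 11.4 ± 3.97 in Pvalb samples (n = 6). The lowest ratio was 5.75 in SS04031R and the highest 15.9 in PV4-M. The ranges of dated controls (5.75 to 8.6) and CUS samples (8.39 to 12.1) overlapped. The Eef1b2 to Eef1d ratio had a median of 1.00 in female Sst, 1.60 in Pvalb, 2.87 in dated control and 2.19 in CUS samples, and was 5.18 in the averaged Sst male pair.

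The members did not vary as a block. Over the 16 numbered samples, Spearman's rho of FPKM was 0.856 between Eef1a2 and Eef1g, 0.829 between Eef1a2 and Eef2 and 0.815 between Eef1g and Eef2, but 0.471 between both eEF1A genes and 0.253 between Eef2 and its kinase. These values describe 16 points that share subtype, sex and library, and they shift with the samples taken: with the dated samples added (22), Eef1a2 and Eef1g gave 0.025 and Eef1a2 and Eef2 0.823.

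Among the genes with a mean of at least 5 FPKM and no 0 in these 16 samples (8972 for Eef1a2 and 8971 for each other member), those most like each member differed as well. They were Rps25 (0.959), Sgk1 (0.956) and Rps2 (0.947) for Eef1a1, and Rps25 and Rps2 encode proteins of the small ribosomal subunit. For Eef1a2 they were Epb4.1l1 (0.959), Tmem223 (0.947) and Cnih2 (0.944), of which Cnih2 encodes an auxiliary subunit of AMPA receptors. Arhgap27 (0.968) and Cln3 (0.962) were among the 3 genes closest to Eef2, and Eef1g was closest to Csk (0.929), Mast2 (0.929) and Poc1b (0.926). Eef1b2 was closest to Sdcbp (0.932), D15Ertd621e (0.924) and Plek (0.918), and Eef2k to Arid2 (0.865), Lsm14a (0.853) and Triap1 (0.844). Eef1d had no gene above 0.818 (Slc35f6), followed by Aptx (0.785) and Sdf2 (0.782).

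Calls among other genes of the elongation cycle are set beside those among all genes, 10.2% by subtype, 3.41% by sex, 0.00705% by CUS and 4.11% by kind of title. At an unadjusted limma p under 0.05 there were 3999 of 14483 genes by subtype and 3515 of 14443 by sex. By CUS there were 956 of 14186 and by kind of title 3354 of 14230. Of 17 accessory genes (eIF5A, selenocysteine and rescue factors, valyl-tRNA synthetase and others) 1 was called higher and 2 lower in Sst than in Pvalb, among them Eef1e1, a scaffold protein of the tRNA synthetase complex (1.21, limma adjusted p = 0.047), and Eefsec, the selenocysteine elongation factor (-0.68, limma adjusted p = 0.0481). Between the sexes 1 of 17 was called, Calm2, a calmodulin gene, lower in females (-1.03, limma adjusted p = 0.0427). Dated males had 1 of 17 higher, Vars, the synthetase that binds eEF1B (1.53, limma adjusted p = 0.0444). After CUS 0 of 17 were called, and 0 at an unadjusted p under 0.05.

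Of 18 genes that modify eEF1A, eEF2 or eIF5A, 16 were in the table. The call among them was Dph5, an enzyme of diphthamide synthesis on eEF2, which was 7.62 FPKM ± 1.5 in dated and 31.8 ± 8.09 in numbered males (n = 3 each; -1.91, limma adjusted p = 0.0218). None of the 16 was called by sex, subtype or CUS (1, 2 and 0 at an unadjusted p under 0.05). Of the 5 mitochondrial elongation genes, Gfm2 was called by sex, but it is listed at 0 in all 10 male Sst libraries, numbered, dated and CUS alike, whereas the females had 35.3 to 47.1 FPKM, and a fold cannot be formed. Of 14 TOP mRNAs other than ribosomal proteins, Vim, an intermediate filament, was called higher in Sst than Pvalb (1.54, limma adjusted p = 0.0168) and Hnrnpa1, an RNA-binding protein, lower in dated males (-2.10, limma adjusted p = 0.0498).

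Other annotated transcripts overlap some members. Snora41, a small nucleolar RNA inside Eef1b2, was above 0 in 5 libraries with a maximum of 639.3 FPKM, and Snord37, inside Eef2, was listed at 0 throughout. Tigd5 overlaps Eef1d at the edge with the higher coordinate and reached 1.94 FPKM. RefSeq names 3 pseudogenes with symbols derived from the members, and the table does not list them. How reads shared with such copies were assigned is not given in the sources used here, so levels of members with such copies carry that uncertainty.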

How the data were processed

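Per the labels and the study's methods, the authors sorted tdTomato-positive cells, depleted ribosomal RNA and sequenced paired ends, and deposited 1 table of FPKM. The submitters' processing notes name mm10, TopHat2, Cufflinks and Cuffdiff, while the methods name HISAT2 and StringTie on mm10 after a sentence with TopHat2 on mm9. Batch removal with ComBat is described, but not whether it applies to these values. The authors tested counts with DESeq2, which FPKM does not permit. A pair of libraries was averaged where its log2 ratios (genes over 5 FPKM) had an SD less than 10% of the SD of the group's second closest pair (0.0212 in Sst males, 0.017 in Pvalb).

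For each comparison, genes with a mean above 0.4 FPKM were fitted on log2(FPKM + 1) with limma 3.58.1 in R 4.3.3 (trended and robust empirical Bayes, two-sided, Benjamini-Hochberg over all genes tested, threshold 0.05), after testing on simulated data. Fold changes on this scale understate those of low genes such as Eef1a2. Positions and promoter windows are from RefSeq GRCm38.p6. Likeness is Spearman's rho (scipy 1.17.1). Named genes are the members, the 3 most alike genes of each, and, per list and comparison, at most 3 called in each direction; a few genes that this rule names are not reported here. The members, lists and tests were chosen with earlier results of these data known. Pseudocount 0.1, other filters (none, or above 1 FPKM), common-median and quantile scaling, other sample sets and leaving out each sample were tried.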

Additional observations from a re-analysis of the deposited data

Results flagged for a closer look

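In 5 of the 21 combinations of gene and group with 4 to 10 samples, 1 sample stood apart from the rest of its group by a gap that is large against the group's range (Dixon's ratio, 95% level), where chance gives about 1 in 20. These 5 fell in 3 samples. The averaged SST0-M and SST1-M were at 989.2 FPKM for Eef1a1, with the next of the 6 unstressed Sst male samples at 605.8, and at 137.5 for Eef1b2, with the next at 68.4. SST-F, whose title carries no number, was at 544.1 FPKM for Eef1a1 (next female 399.7) and at 47.7 for Eef1b2 (next 29.7). The averaged PV0-M and PV2-M were at 31.9 FPKM for Eef1g, with the next Pvalb sample at 90.9.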

How the results depend on the processing

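Eef2 in Sst against Pvalb, the 1 call among the members, was lost with quantile scaling (0 called), with all Sst controls (0), with numbered Sst males only (0), without the Pvalb samples of high Xist (0) and without PV4-M or PV5-M. Leaving out 1 sample at a time gave 0 to 3 calls there, in fits that called 3.83% to 19.9% of all genes. Dropping both averaged pairs, an alternative chosen after seeing the data, gave 4 and called 30.6% of all genes. By sex, counting each library as its own sample called 2 members and 17.7% of all genes, and all male controls 1 and 11.7%. Dated males alone called 4 (Eef1a2, Eef1b2, Eef2 and Eef2k) and 41.5% of all genes, and there sex and the kind of title cannot be told apart. Leaving out 1 sample called 0 to 1 members, with 0.692% to 12.4% of all genes. CUS against numbered male controls called 1 member and 16.1% of all genes. For dated against numbered males, a filter above 1 FPKM, quantile scaling and single libraries each called 1 member, with 5.08%, 7.57% and 12.5% of all genes. Leaving out 1 sample there gave 0 to 1, with 0.381% to 13.7% of all genes. The cause of these shifts was not tested. With a replicate block, 2 members were called for Sst against Pvalb (Eef1a2 and Eef2) and 0 by sex, beside 8.21% and 0.09% of all genes. Correlations between the deviations of same-numbered samples ran from -0.051 to 0.127, so the numbers are not taken to pair the samples.

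Counts over all genes moved too. By sex 493 became 13 with the replicate block, 228 with the kind of title as covariate, 1699 with all male controls, 6032 with dated males, 2549 with single libraries and 100 to 1787 without 1 sample. Sst against Pvalb, 1478, became 3638 with females only, 13 with numbered males, 9 without high Xist, 4431 without both pairs and 554 to 2883 without 1 sample. CUS, 1, became 2309 against numbered males, 6 against both sexes and 1 to 16 without 1 sample. Dated against numbered, 585, became 381 without the filter, 1091 with quantile scaling, 1769 with single libraries and 54 to 1962 without 1 sample.

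Signs that turned, none of them of a called value, are log2 fold changes. By sex, quantile scaling gave Eef1d 0.071 and Eef2 0.29, all males Eef1d 0.019, dated males Eef1d 0.16, and leaving out 1 sample Eef1g -0.31 to 0.58. For Sst against Pvalb, quantile scaling gave Eef1a1 0.15 and Eef2k 0.009, single libraries Eef1a1 0.01, all Sst controls Eef2k 0.13, females only Eef1b2 -0.052, numbered males Eef1a1 0.38 and Eef2k 0.12, no high Xist Eef1a1 0.016 and Eef1b2 -0.011, no pairs Eef2k 0.043, and leaving out 1 sample Eef2k -0.083 to 0.03. For CUS, median scaling gave Eef2 0.001, quantile scaling Eef1a1 0.061, Eef1b2 0.004 and Eef2 0.014, all males Eef1d -0.026 and Eef2 0.33, numbered males Eef1d -0.17, Eef2 0.66 and Eef2k 0.066, and both sexes Eef1a1 0.018, Eef1b2 0.41, Eef1d -0.036, Eef2 0.59 and Eef2k 0.061. Leaving out 1 sample there gave Eef1a1 -0.15 to 0.017, Eef1b2 -0.20 to 0.062 and Eef2 -0.064 to 0.11. For dated against numbered, median scaling gave Eef1b2 0.05, quantile scaling Eef1b2 0.22 and Eef1g 0.078, single libraries Eef1g 0.13, and leaving out 1 sample Eef1b2 -0.42 to 0.57 and Eef1g -0.66 to 0.22. Other member results kept their sign. Without counts, no counting error can be given, and with 3 samples against 3 small differences were not detectable.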
